A study of Homo sapiens with 12 samples.

Results

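Complex I, the NADH:ubiquinone oxidoreductase of the inner mitochondrial membrane, is the entry point for electrons from NADH into the respiratory chain. Its matrix arm carries the flavin and the iron-sulfur clusters that pass electrons to ubiquinone, and its membrane arm pumps protons. The core subunits of the matrix arm are encoded in the nucleus and those of the membrane arm in mitochondrial DNA, while nuclear accessory subunits surround both arms and assembly factors build the complex without remaining in it. Hepatocytes rely on this chain for much of their ATP. The set described here holds the nuclear genes of the complex named by the NDUF pattern, protein-coding genes of the NDUFA, NDUFAB, NDUFB, NDUFC, NDUFS, NDUFV and NDUFAF series with a mean normalized count of at least 20 over all 12 libraries. The pattern matched 46 symbols and all 46 passed the filter, among 12939 genes that passed it and 22148 genes in the deposited table. By role they were 7 core subunits, 9 accessory subunits of the matrix arm, 21 accessory subunits of the membrane arm, 8 assembly factors, and NDUFA4, which carries the name but is known as a subunit of complex IV.

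The RNA came from HepG2, a human liver cancer line used as a hepatocyte model. Cells were transfected with a control siRNA (siNC) or with siRNA against CPSF6 (siCPSF6), a subunit of cleavage factor Im, a complex that recognizes UGUA in nascent RNA and takes part in choosing where the 3' end is cut. Cells of both arms received actinomycin D, an inhibitor of transcription, at 5 µg/ml 48 h after transfection and were harvested after 0, 3 and 6 h, which gave 6 groups of 2 biological replicates. Each sample's 5 µg of total RNA received ERCC transcripts as a spike-in, so values scaled on it are per mass of total RNA and not per cell. The source does not say whether replicates came from separate transfections, and the p-values measure the spread between these libraries.

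Every library summed to between 19133288 and 33352246 normalized counts, on a scale that gives all libraries the same upper quartile, and replicates correlated at 0.9911 to 0.9931 on the log scale. The read depth before scaling is unknown. CPSF6 itself checked the labels: its normalized counts were 2147 and 2082 in siNC at 0 h, 3389 and 3309 at 3 h and 3469 and 3443 at 6 h, against 768 and 718, 674 and 801, and 810 and 732 in siCPSF6. Its log2 difference averaged over the times was -1.95 ± 0.05 (SE, adjusted p = 2.8e-13), and no siCPSF6 library came near a siNC library. Hepatocyte transcripts were abundant, with 125852 to 303682 normalized counts of ALB and 131415 to 571859 of APOB. Of 5 such markers (ALB, AFP, APOB, TF and SERPINA1), 1 (20%) was lower and 2 (40%) higher in siCPSF6 on average. The shares of all genes were 35.4% and 34.4%, and the 5 differences ranged from -0.43 to 0.80. The fibroblast and endothelial transcripts COL3A1, VWF and CDH5 had at most 2, 4 and 5. COL1A1, a fibroblast collagen, ranged from 9 to 75 and PECAM1, an endothelial adhesion molecule, from 28 to 77. COL1A1 was higher in siCPSF6 on average (0.75 ± 0.21, adjusted p = 0.0045) and at 0 h (1.28, adjusted p = 0.0093), and PECAM1 was not called (0.37, adjusted p = 0.14). CD68, a leukocyte marker which epithelial lines also express, ranged from 504 to 1875 and was lower in siCPSF6 on average (-0.27 ± 0.05, adjusted p = 0.00014). The leukocyte markers PTPRC and CD3E and the fibroblast marker LUM had no entry in the deposited table. The part of these transcripts in the members' differences was not tested.

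Levels between genes were compared in TPM, which is per length. Accessory subunits of the membrane arm were the most abundant, with a median of 206 TPM over the members (range 30.5 to 658), followed by the core subunits at 94.7 (44.2 to 179) and the accessory subunits of the matrix arm at 64.6 (6.71 to 209). Assembly factors were the scarcest at 18.35 TPM (6.58 to 120), and NDUFA4 stood at 58.5. The highest member was NDUFC2, a small membrane-arm subunit, at 658 TPM on average and between 570.48 and 746.98 in the 12 libraries. The lowest was NDUFAF1, an assembly factor of the membrane arm, at 6.58 TPM and between 4.41 and 8.81. The 2 ranges did not come near each other.

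Averaged over the 3 times, most complex I subunits that moved were lower after CPSF6 silencing, and the core subunits were lowest. Of 46 members, 24 were lower (52.2%) and 2 were higher (4.35%) in siCPSF6 than in siNC by limma at a Benjamini-Hochberg adjusted p under 0.05, against 35.4% and 34.4% of all genes tested. The median log2 difference of the members was -0.13 and that of all genes -0.01. Among the roles, 6 of 7 core subunits were lower with a median of -0.46, 12 of 21 membrane-arm accessory subunits with a median of -0.22, and 5 of 9 matrix-arm accessory subunits with a median of -0.15. No subunit was higher. Of the 8 assembly factors, 1 was lower and 2 were higher, with a median of 0.02. RNA from whole cultures does not separate fewer cells with a transcript from less transcript in each cell.

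**Figure D1:**
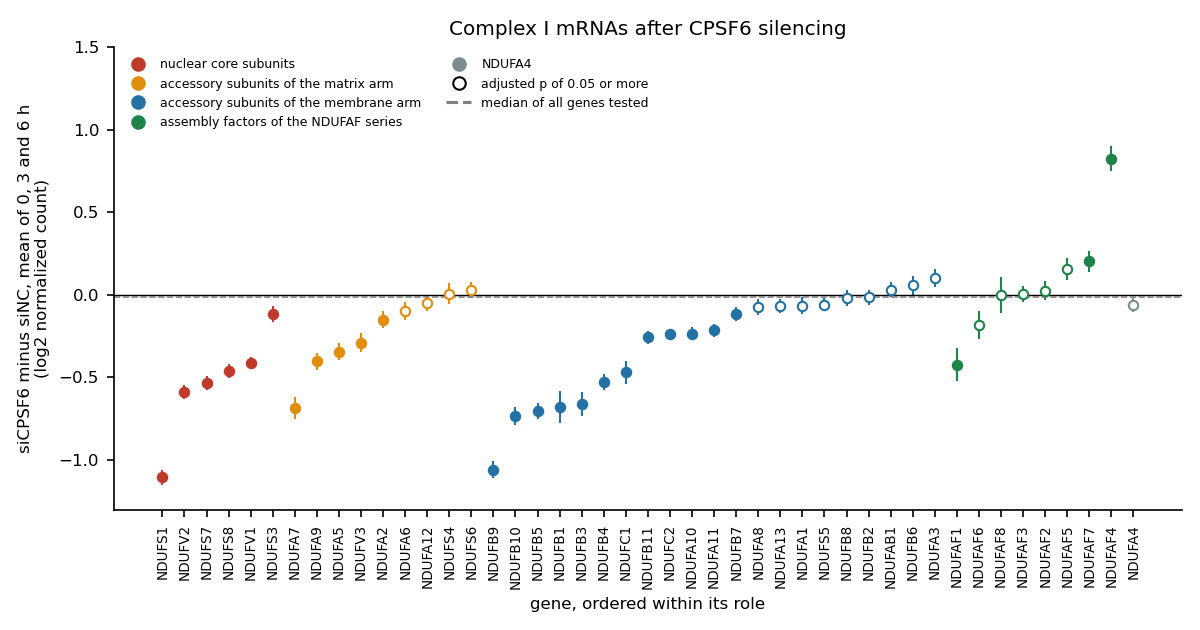
Log2 difference of siCPSF6 minus siNC averaged over 0, 3 and 6 h for the members, grouped by role on the horizontal axis; bars are standard errors from limma, filled points have an adjusted p under 0.05 and the dashed line is the median of all genes tested. NDUFS1 at -1.10 and NDUFB9 at -1.06 are the lowest points, NDUFAF4 at 0.82 the highest, and 24 members are called lower.

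NDUFS1, the largest subunit of the complex and a carrier of iron-sulfur clusters in the NADH-oxidizing tip of the matrix arm, had the largest difference. Its normalized counts were 2957 and 2779 in siNC at 0 h, 3979 and 3964 at 3 h and 5174 and 5360 at 6 h, against 1631 and 1509, 1745 and 1984, and 1952 and 2189 in siCPSF6. All 6 siCPSF6 libraries lay below all 6 siNC libraries, with a log2 difference of -1.10 ± 0.05 (SE, adjusted p = 3e-11), or 0.465 times the siNC level. NDUFV2, an iron-sulfur subunit beside it, had 1953 and 2083, 2923 and 2951, and 3906 and 4212 in siNC, and 1679 and 1602, 1966 and 2123, and 2015 and 2195 in siCPSF6. The gap between arms widened with time, and the average difference was -0.59 ± 0.04 (adjusted p = 9.5e-09). NDUFV1, which binds NADH and the flavin, was 0.41 lower on the log2 scale (SE 0.04, adjusted p = 5.6e-08), with 3444 and 3602, 6876 and 6623, and 8937 and 8457 normalized counts in siNC and 2828 and 2767, 4866 and 4909, and 6390 and 6408 in siCPSF6. At each time its siCPSF6 libraries lay below its siNC libraries.

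NDUFS7, NDUFS8 and NDUFS3, core subunits nearer the membrane, were also lower. NDUFS7 had 852 and 933 normalized counts in siNC at 0 h, 1616 and 1602 at 3 h and 1685 and 1614 at 6 h, against 661 and 637, 1057 and 1076, and 1121 and 1125 in siCPSF6 (log2 difference -0.54 ± 0.04, adjusted p = 3.6e-08). NDUFS8, a carrier of iron-sulfur clusters, had 1319 and 1437, 2531 and 2583, and 3198 and 2867 in siNC, and 1152 and 1093, 1846 and 1736, and 2015 and 2055 in siCPSF6 (-0.46 ± 0.04, adjusted p = 2e-07). For both genes siCPSF6 was below siNC at each time without overlap. NDUFS3 differed least among those called, at -0.11 (adjusted p = 0.044), and its call was lost when any 1 of 10 libraries was left out.

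NDUFS1, NDUFV2 and NDUFS7 moved together as core subunits and NDUFAF4 moved the other way, so their start regions are shown, from RefSeq on GRCh38.p14, each 250 bases before to 50 bases after the start, 5′ to 3′ on the gene's strand with motif matches in capitals. NDUFS1 is at chr2:206159395-206159694 on the minus strand, NDUFV2 at chr18:9102449-9102748 on the plus strand, NDUFS7 at chr19:1383657-1383956 on the plus strand, and NDUFAF4 at chr6:96897842-96898141 on the minus strand.
NDUFS1: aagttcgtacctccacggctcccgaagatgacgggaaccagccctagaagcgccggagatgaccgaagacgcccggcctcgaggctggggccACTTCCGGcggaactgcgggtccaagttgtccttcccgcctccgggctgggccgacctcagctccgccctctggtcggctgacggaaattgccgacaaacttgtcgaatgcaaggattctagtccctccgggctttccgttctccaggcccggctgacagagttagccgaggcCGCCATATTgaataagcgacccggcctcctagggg
NDUFV2: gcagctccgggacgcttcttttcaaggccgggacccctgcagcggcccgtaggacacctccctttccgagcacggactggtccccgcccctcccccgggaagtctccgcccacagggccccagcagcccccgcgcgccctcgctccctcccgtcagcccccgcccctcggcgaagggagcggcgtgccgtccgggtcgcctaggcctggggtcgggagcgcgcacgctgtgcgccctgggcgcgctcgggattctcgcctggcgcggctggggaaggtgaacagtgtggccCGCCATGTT
NDUFS7: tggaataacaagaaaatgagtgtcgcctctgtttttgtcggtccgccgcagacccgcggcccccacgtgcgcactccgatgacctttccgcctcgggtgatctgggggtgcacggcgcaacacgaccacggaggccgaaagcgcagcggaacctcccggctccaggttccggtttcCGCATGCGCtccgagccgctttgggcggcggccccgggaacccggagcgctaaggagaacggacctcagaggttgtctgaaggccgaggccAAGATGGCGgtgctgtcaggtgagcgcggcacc
NDUFAF4: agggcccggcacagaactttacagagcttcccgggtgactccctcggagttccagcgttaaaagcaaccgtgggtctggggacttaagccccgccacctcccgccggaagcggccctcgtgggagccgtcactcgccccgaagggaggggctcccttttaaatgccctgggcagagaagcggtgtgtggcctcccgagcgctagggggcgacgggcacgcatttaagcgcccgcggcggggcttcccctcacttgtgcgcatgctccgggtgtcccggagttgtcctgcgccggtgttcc
The motifs searched on both strands were AANATGGCG (YY1, which contains ATG and can overlap a start codon), GCGCANGCG (NRF1) and CCGGAAGT (ETS factors). NDUFS1 had a YY1 and an ETS match, NDUFV2 a YY1 match, NDUFS7 a YY1 and an NRF1 match, and NDUFAF4 none. NDUFB10 and the core subunit NDUFV1, both lower members, had no match to any of the motifs either. NDUFS1 has another window, chr2:206159160-206159459, not shown, with the same YY1 match and no ETS match. A gene was counted as holding a motif if any of its windows did. Of the 39 members with a window, 12 (30.8%) held the YY1 letters, against 8.4% of the 9873 tested genes with a window. The NRF1 letters were in 11 members (28.2%) and 17.6% of genes, and the ETS letters in 2 members (5.1%) and 10.4% of genes. Of the 12 members with the YY1 letters 7 were lower on average, among them NDUFS1, NDUFV2 and NDUFA7, and NDUFS4, NDUFS6 and NDUFAF8 were among the 5 not called, while 14 of the 27 windows without the letters belonged to lower members and 2 to higher ones. A match describes the letters and not binding, and no match says only that these letters are not in this window.

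Among accessory subunits of the membrane arm, NDUFB9 had a difference close to that of NDUFS1. Its normalized counts were 2066 and 2190 in siNC at 0 h, 3935 and 4135 at 3 h and 4783 and 4960 at 6 h, against 1294 and 1198, 1716 and 1973, and 1853 and 2197 in siCPSF6. The arms did not overlap at any time, and the average log2 difference was -1.06 ± 0.05 (adjusted p = 1.4e-10), or 0.48 times the siNC level. NDUFB10, which faces the intermembrane space, had 1108 and 1169, 2084 and 2084, and 2209 and 2395 in siNC and 811 and 884, 1180 and 1271, and 1024 and 1271 in siCPSF6 (-0.735 ± 0.055, adjusted p = 1.6e-08). NDUFB5 had 784 and 728, 1306 and 1194, and 1918 and 1841 in siNC and 481 and 535, 735 and 784, and 1043 and 1084 in siCPSF6 (-0.70 ± 0.05, adjusted p = 7.9e-09). NDUFB4 had 863 and 830, 1486 and 1561, and 1602 and 1474 in siNC and 645 and 635, 927 and 1019, and 1014 and 1108 in siCPSF6 (-0.53 ± 0.05, adjusted p = 1.2e-07). In each of these 3 genes every siCPSF6 library was below both siNC libraries of its time. NDUFB1 (-0.68), NDUFB3 (-0.66), NDUFC1 (-0.47), NDUFB11 (-0.26), NDUFC2 (-0.24), NDUFA10 (-0.24), NDUFA11 (-0.22) and NDUFB7 (-0.12) were also lower, the last losing its call when any 1 of 4 libraries was left out. The other 9 members of this role, NDUFA1, NDUFA3, NDUFA8, NDUFA13, NDUFAB1 (the acyl carrier protein), NDUFB2, NDUFB6, NDUFB8 and NDUFS5, did not pass the test and ranged from -0.07 to 0.10.

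In the matrix arm, the accessory subunit NDUFA7 had the largest difference, -0.68 ± 0.07 (adjusted p = 2.9e-07), and was lower at every time. NDUFA9 (-0.40), NDUFA5 (-0.34), NDUFV3 (-0.29) and NDUFA2 (-0.15) were also lower, NDUFA2 losing its call when any 1 of 4 libraries was left out. NDUFA6, NDUFA12, NDUFS4 and NDUFS6, at -0.10, -0.05, 0.01 and 0.03, did not pass.

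The assembly factor NDUFAF4, which acts on an intermediate of the matrix arm, went the other way. Its normalized counts were 356 and 392 in siNC at 0 h, 274 and 249 at 3 h and 118 and 143 at 6 h, against 527 and 452, 434 and 457, and 350 and 303 in siCPSF6. Its siCPSF6 libraries were above its siNC libraries at each time, and the average difference was 0.82 ± 0.08 (adjusted p = 1.5e-07). NDUFAF7, a methyltransferase that acts in building the matrix arm, was 0.20 higher (adjusted p = 0.011), and NDUFAF1 was lower at -0.42 (adjusted p = 0.0014). NDUFAF6 (-0.18), NDUFAF8 (0.00), NDUFAF3 (0.01), NDUFAF2 (0.03) and NDUFAF5 (0.16) did not pass. NDUFA4 had 1468 and 1440, 2825 and 2905, and 4378 and 4385 in siNC and 1685 and 1579, 2513 and 2796, and 3564 and 3873 in siCPSF6. Its arms were ordered differently at 0 h and at 6 h, and the average of -0.06 ± 0.04 did not pass (adjusted p = 0.2).

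**Figure D2:**
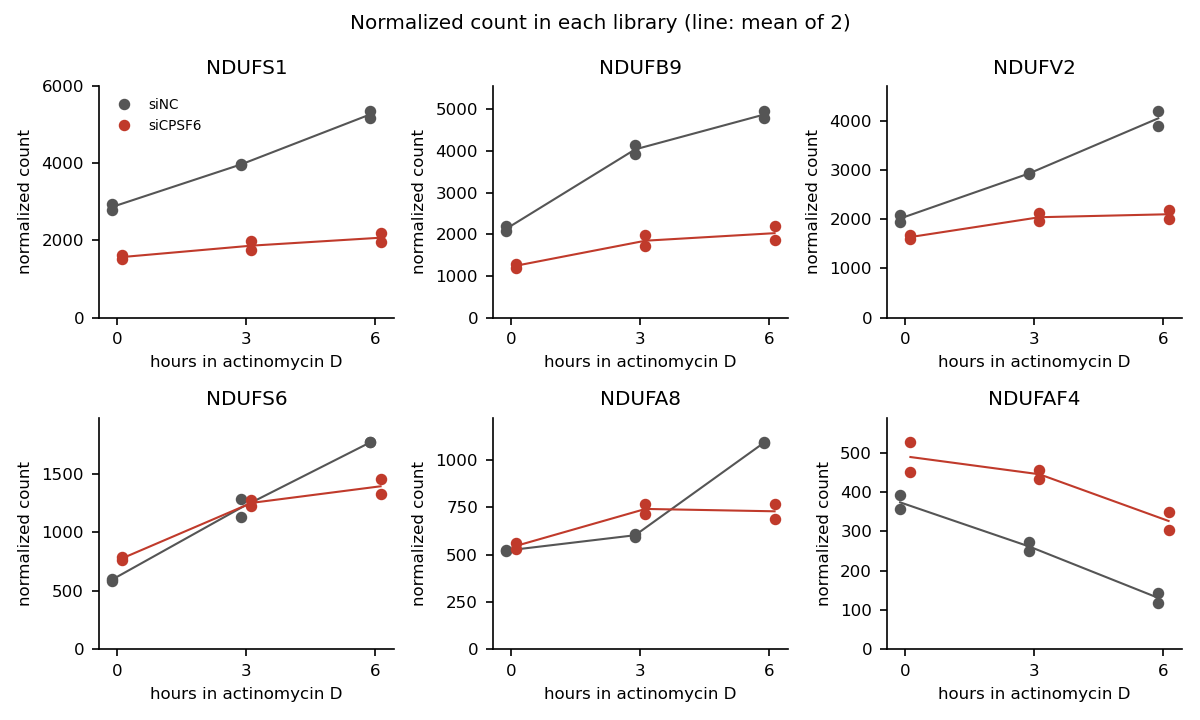
Normalized count in each library (points, 2 per group) of 6 members against hours in actinomycin D, siNC in grey and siCPSF6 in red, with lines through the mean of 2 and vertical axes from 0. The siCPSF6 points of NDUFS1 and NDUFB9 lie below siNC throughout, those of NDUFAF4 above, and those of NDUFS6 go from above siNC at 0 h to below it at 6 h.

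Most members share ground with a neighbour, and whether counting used strand is not given in the sources used here. In GENCODE 29, NDUFS1 (chr2:206114817-206159603, minus strand) overlaps EEF1B2 on the opposite strand, NDUFB9 (chr8:124539101-124580648, plus strand) overlaps TATDN1 and MTSS1, NDUFV2 (chr18:9102630-9134345, plus strand) overlaps its antisense gene and NDUFB11 overlaps RBM10. On its own strand NDUFC2 overlaps the readthrough gene NDUFC2-KCTD14, NDUFA13 overlaps YJEFN3 and NDUFB2 overlaps ADCK2. NDUFA7 overlaps RPS28 on the opposite strand and the protein-coding AC010323.1 on its own. Other overlaps with protein-coding genes of the same strand include NDUFA9 with AC005832.4 and AC005833.1, NDUFA11 with AC024592.3, NDUFC1 with MGARP and NDUFS3 with PTPMT1. No gene overlaps NDUFAF4 (chr6:96889313-96897881, minus strand), NDUFA8 (chr9:122144058-122159819, minus strand), NDUFB10, NDUFB4 or NDUFS6. Reads of overlapping genes may be split between them, and the share was not tested.

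At 0 h, before transcription was blocked, members lay on both sides. In siCPSF6, 15 of 46 (32.6%) were lower and 10 (21.7%) higher, against 21.1% and 21.8% of all genes, with medians of -0.01 for the members and 0.00 for all genes. Core subunits were lower in 5 of 7 cases, and 4 of 8 assembly factors were higher. The lowest were NDUFS1 at -0.87, NDUFB9 at -0.77, NDUFB5 at -0.57 and NDUFS7 at -0.46. The higher members included NDUFS6 (0.39), NDUFAF8 (0.61), NDUFB6 (0.38), NDUFAF4 (0.39), NDUFA3 (0.38), NDUFAB1 (0.30), NDUFAF2 (0.28), NDUFB2 (0.25) and NDUFAF3 (0.23), and their number rested on single libraries: 3 were higher without the first siNC library of 0 h, 6 without the second, 5 without the first siCPSF6 library and 1 under spike-in scaling. NDUFB2 and NDUFAF3 lost their calls without any 1 of the 4 libraries of this time. The lower count fell to 9 without the second siNC library of 0 h, and NDUFAF4 lost its call without either siNC library (adjusted p = 0.17 and 0.056) and without the first siCPSF6 library (0.23).

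At 3 h, 26 of 46 (56.5%) were lower and 5 (10.9%) higher, against 29.1% and 26.2% of all genes, with a member median of -0.26 and an all-gene median of -0.03. NDUFS1 (-1.09), NDUFB9 (-1.13), NDUFB10 (-0.77) and NDUFB5 (-0.72) had the smallest p. The 5 higher members included NDUFA8 (0.30), NDUFAF4 (0.77), NDUFAF5 (0.31) and NDUFAF7 (0.35), and 2 members were higher without the second siNC library of 3 h, 3 without the second siCPSF6 library and 1 under spike-in scaling. Those 2 libraries also held the call of NDUFA8, which had an adjusted p of 0.054 without the first of them and 0.069 without the second. Under spike-in scaling 15 members were lower at 3 h; the spike-in factors of the 2 siCPSF6 libraries of this time, 0.296 and -0.103 on the log2 scale, were the farthest apart of any pair.

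By 6 h, 26 of 46 (56.5%) were lower and NDUFAF4 alone was higher (2.17%), against 28.6% and 27% of all genes. The member median was -0.28 and the all-gene median -0.03. Of the 46 differences, 43 were below 0 and 42 below the all-gene median. The share of all genes below 0 was not counted. NDUFS1 (-1.35 ± 0.08, adjusted p = 5.4e-09), NDUFB9 (-1.27 ± 0.09, adjusted p = 2.6e-08), NDUFV2 (-0.95 ± 0.07, adjusted p = 7.2e-08) and NDUFB10 (-1.01 ± 0.10, adjusted p = 5.3e-07) had the smallest p, and NDUFA7 was at -1.02. NDUFAF4 was 1.32 higher (SE 0.13, adjusted p = 9.2e-07). With replicate number as a block, 2 members were higher at 6 h. In NDUFA4 the difference was -0.24 (adjusted p = 0.011), with its call lost without the first siCPSF6 library of 6 h (adjusted p = 0.11).

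Over the 3 times, 14 members were lower at each, namely NDUFS1, NDUFS7, NDUFS8, NDUFV1, NDUFV2, NDUFV3, NDUFA7, NDUFA9, NDUFB1, NDUFB3, NDUFB4, NDUFB5, NDUFB9 and NDUFB10, and only NDUFAF4 was higher at each. Of these calls, that of NDUFV2 at 0 h was lost without the second siNC library (adjusted p = 0.053) and that of NDUFS8 at 0 h without either of 2 libraries. NDUFS6 and NDUFAF3 were higher at 0 h and lower at 6 h. A further 9 members were lower at 6 h without a call at 0 h, and 6 (NDUFA1, NDUFA6, NDUFA12, NDUFB8, NDUFS3 and NDUFS4) were called at no time. The shares of all genes with these patterns of calls over the 3 times were not counted, so the patterns cannot be read as particular to the members. Both siCPSF6 libraries lay below both siNC libraries at all 3 times in 18 members (39.1%), against 22.7% of all genes, and above in 1 (2.17%), against 21.1%. In 42 of 46 members the difference was lower at 6 h than at 0 h, and in 41 it fell by more than the all-gene median of -0.03. The share of all genes with a lower difference at 6 h was not counted.

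**Figure D3:**
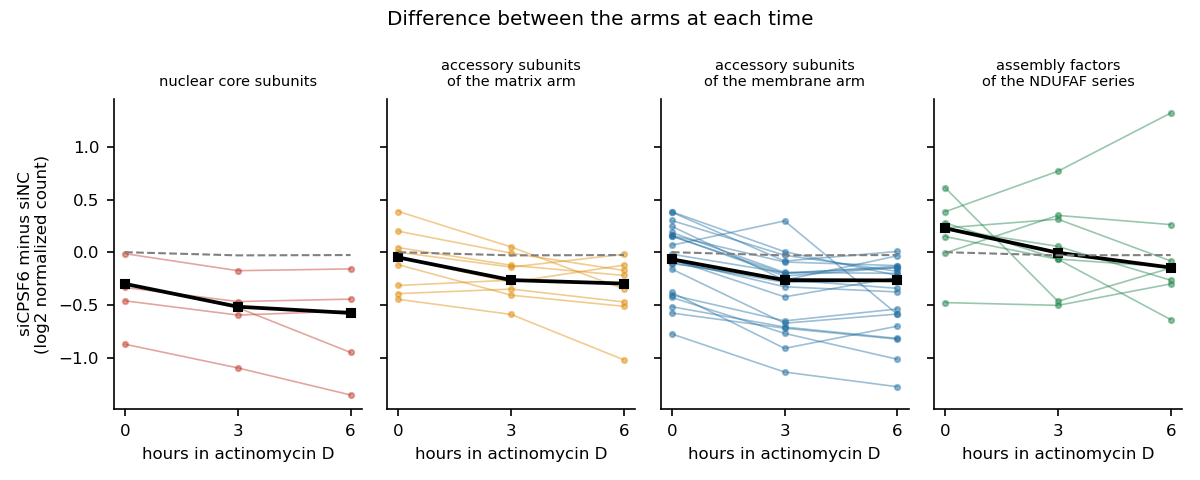
Log2 difference of siCPSF6 minus siNC at 0, 3 and 6 h in 4 panels by role; thin lines are genes, black squares the median of all members of the role and the dashed line the median of all genes tested. The core median goes from -0.30 at 0 h to -0.51 and -0.57, the membrane-arm median from -0.07 to -0.26 and -0.27, and the assembly-factor median from 0.23 to 0.00 and -0.14.

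Through the block of transcription, complex I transcripts gained ground on the typical transcript in both arms. On the deposited scale, 42 of 46 members (91.3%) rose from 0 to 6 h in siNC and 2 (4.35%) fell, against 48.6% and 30.7% of all genes, with a member median of 1.20 and an all-gene median of 0.31. In siCPSF6, 41 (89.1%) rose and 2 (4.35%) fell, against 49.8% and 27.6%, with medians of 0.84 and 0.35. A rise on this scale is relative to the upper quartile of each library, and the other scales move every gene. Per spike-in the all-gene median was -0.70 in siNC and -0.54 in siCPSF6, and the member medians were 0.18 and -0.06. On the spike-in scale, 13 members rose and 6 fell in siNC, and 1 rose and 13 fell in siCPSF6. By TPM the numbers were 30 and 7 in siNC and 21 and 12 in siCPSF6. The shares of all genes called on these 2 scales are not given here, so these numbers alone do not set the members apart. On each of these 3 scales 41 or 42 of the 46 members were above the all-gene median in siNC and 39 or 40 in siCPSF6. The spike-in scale moves all genes of a library nearly alike, so it is no separate check of this position.

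NDUFA4 (1.59 ± 0.07, adjusted p = 3.1e-11), NDUFV1 (1.30) and NDUFA10 (1.39 ± 0.07, adjusted p = 4.2e-11) were among the members with the smallest p for the rise in siNC. NDUFA10, of the nucleoside kinase fold, had 2773 and 2708 normalized counts at 0 h, 5196 and 4952 at 3 h and 7448 and 6880 at 6 h in siNC, and 2525 and 2570, 4167 and 4313, and 5827 and 5491 in siCPSF6. In siCPSF6 the smallest p belonged to NDUFV1 (1.19), NDUFA10 (1.15), NDUFB7 (1.22) and NDUFB11 (1.17). NDUFB7, which faces the intermembrane space, had 1242 and 1316, 2457 and 2466, and 3285 and 3217 in siNC and 1305 and 1224, 2072 and 2237, and 2825 and 3065 in siCPSF6. NDUFB11 had 988 and 1030, 2104 and 2103, and 2748 and 2853 in siNC and 959 and 956, 1601 and 1761, and 2184 and 2138 in siCPSF6. These genes gained in both arms, and every library of 6 h was above every library of 0 h.

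Only assembly factors fell on the deposited scale. NDUFAF4 fell in both arms, by 1.52 ± 0.13 in siNC (adjusted p = 3.6e-08) and by 0.58 ± 0.13 in siCPSF6 (adjusted p = 0.00093) on the log2 scale. Per spike-in its counts were 535.9 and 587.4 in siNC at 0 h and 81.5 and 114.4 at 6 h, and 702.8 and 659.1 and then 256.4 and 230 in siCPSF6. The fall was thus seen on both scales in both arms, at -2.53 and -1.48 per spike-in. NDUFAF7 fell in siNC by 0.40 (adjusted p = 0.0041), with counts of 476 and 419 at 0 h and 344 and 335 at 6 h, and lost its call without the first siNC library of 0 h (adjusted p = 0.06). NDUFAF5, which hydroxylates NDUFS7, fell in siCPSF6 by 0.40 (adjusted p = 0.0056), with 512 and 539 at 0 h and 372 and 427 at 6 h, and lost its call without the first siCPSF6 library of 6 h. NDUFAF8, the partner of NDUFAF5, was the highest riser in both arms (2.06 and 1.30), with 265 and 384 normalized counts in siNC at 0 h and 1131 and 1574 at 6 h.

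**Figure D4:**
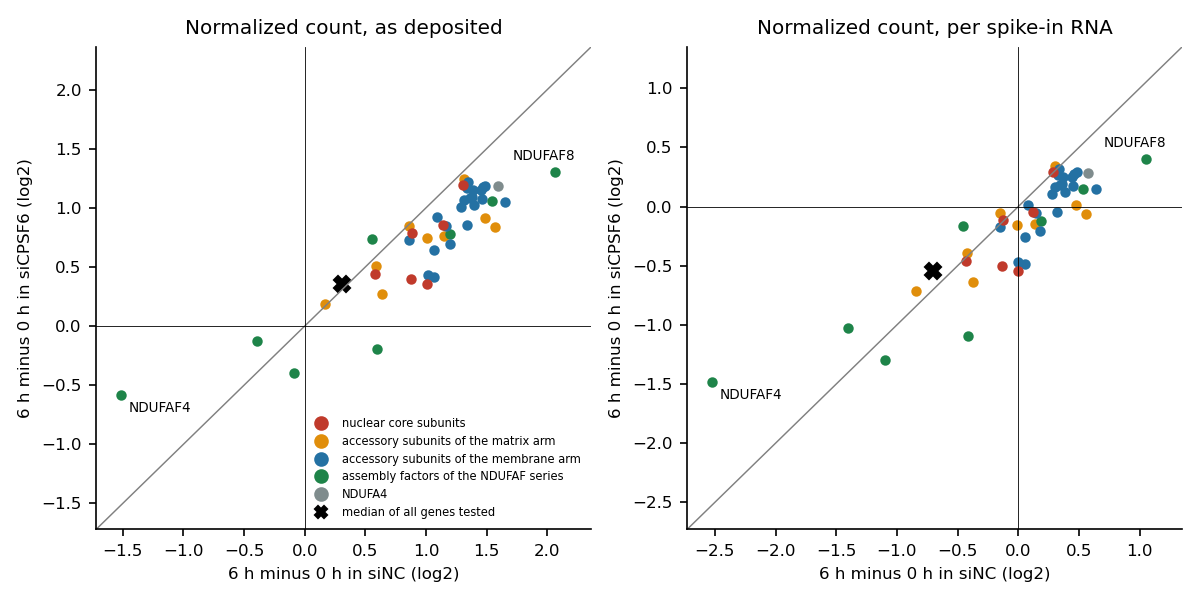
Log2 change from 0 to 6 h of each member in siNC (horizontal axis) and siCPSF6 (vertical axis), on the deposited scale and per spike-in; the grey line marks equal change and the X the median of all genes. Most members lie right of and below the line, and NDUFAF4 lies farthest to the lower left, above the line.

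The difference between the arms in the change from 0 to 6 h was tested directly. It was lower in siCPSF6 in 18 of 46 members (39.1%) and higher in 1 (2.17%), against 12.4% and 12% of all genes, with a member median of -0.30 and an all-gene median of -0.03. In 41 of 46 members the difference was below the all-gene median, on the deposited scale and by TPM. Spike-in scaling divides each library by 1 factor and moves all genes nearly alike, so it could hardly change this position. Relative to the all-gene median the members' median was -0.27 on the deposited scale, and for that reason also per spike-in, and -0.22 by TPM. The calls depended on the scale, with 1 lower per spike-in and 5 by TPM, and 11 were lower without the first siCPSF6 library of 0 h or without the first siCPSF6 library of 6 h. The shares of all genes called under these alternatives are not given here. By role, 3 of 7 core subunits, 3 of 9 matrix-arm and 9 of 21 membrane-arm accessory subunits, 2 of 8 assembly factors and NDUFA4 were lower.

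NDUFS6, which carries zinc in the matrix arm, had 587 and 604, 1135 and 1290, and 1772 and 1773 normalized counts in siNC and 766 and 792, 1226 and 1281, and 1330 and 1462 in siCPSF6. Its siCPSF6 libraries were above siNC at 0 h, overlapped it at 3 h and were below it at 6 h, and the arms differed by -0.73 ± 0.12 (adjusted p = 0.00046). NDUFA8, an intermembrane-space subunit, had 520 and 522, 610 and 595, and 1092 and 1094 in siNC and 531 and 562, 717 and 766, and 689 and 769 in siCPSF6, a difference of -0.65 ± 0.12 (adjusted p = 0.0015). NDUFV2 differed by -0.65 ± 0.10 (adjusted p = 0.00045). Per spike-in these 3 differences were -0.62, -0.54 and -0.54 and did not pass (adjusted p = 0.084, 0.18 and 0.13), while by TPM all 3 did. NDUFAF4 was the one member with a higher change in siCPSF6, 0.93 ± 0.19 (adjusted p = 0.0023), called per spike-in at 1.04 and not by TPM at 0.85 (adjusted p = 0.18). NDUFS1 (-0.48, adjusted p = 0.0067) and NDUFB9 (-0.50, adjusted p = 0.01) were among the lower, NDUFB9 losing its call without the first siCPSF6 library of 0 h (adjusted p = 0.052), as did NDUFA4 (-0.40, adjusted p = 0.01; 0.055 without that library).

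Split at 3 h, few members differed between arms in either interval. From 0 to 3 h, 2 were lower (4.35%) and 0 higher by limma (1 at an unadjusted p under 0.05), against 0.734% and 2.26% of all genes, with a member median of -0.22 and an all-gene median of -0.03. NDUFB2, a membrane-arm subunit, had 720 and 714, then 1607 and 1673, and 1859 and 1828 in siNC and 847 and 855, 1330 and 1406, and 1721 and 1888 in siCPSF6, and differed by -0.51 ± 0.11 (adjusted p = 0.018). Its siCPSF6 libraries were above siNC at 0 h, below it at 3 h and on both sides of it at 6 h. NDUFC2 had 4352 and 4391, 8541 and 8264, and 9316 and 9302 in siNC and 4342 and 4024, 6294 and 6256, and 7759 and 8057 in siCPSF6, and differed by -0.36 ± 0.09 (adjusted p = 0.038). NDUFA13 (-0.38, adjusted p = 0.06) and NDUFS5 (-0.35, adjusted p = 0.057) missed the threshold. NDUFA13 had 1596 and 1734, 3614 and 3707, and 4646 and 4463 in siNC and 1919 and 1794, 3065 and 3209, and 3920 and 4338 in siCPSF6, while NDUFS5 had 1874 and 1867, 3928 and 3764, and 4688 and 4480 in siNC and 2161 and 2003, 3407 and 3285, and 4054 and 4329 in siCPSF6. This count was fragile: 11 members were lower with replicate number as a block, 0 were lower without the first siNC library of 0 h, the second siNC library of 3 h, either siCPSF6 library of 0 h or the first siCPSF6 library of 3 h, 1 without any of the other 3 libraries of 0 and 3 h, and 5 without either siNC library of 6 h.

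From 3 to 6 h, 4 members were lower (8.7%) and 0 higher by limma (3 at an unadjusted p under 0.05), against 7.47% and 7.84% of all genes, with medians of -0.07 and 0.00. NDUFA8 differed by -0.88 ± 0.12 (adjusted p = 0.00022) and was called per spike-in as well, at -0.90. NDUFV2 (-0.42, adjusted p = 0.012) and NDUFS6 (-0.40, adjusted p = 0.033) were also lower. NDUFS6 lost its call when any 1 of 6 libraries was left out and NDUFV2 without the second siCPSF6 library of 3 h or the first of 6 h, and 2 members were lower without either of those libraries. The block gave 8 lower and 1 higher, and 1 was higher without the second siNC library of 6 h.

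By TPM the median of the members' average differences was -0.13, as it was by normalized count. Of the 24 members lower by count, 23 were lower by TPM. Of the 2 higher by count 1 was higher by TPM, NDUFAF7 not being called (0.14, adjusted p = 0.093), and 3 members were higher by TPM in all. The apparent transcript length, the ratio of the normalized count to the TPM centred on spike-ins, was shorter in siCPSF6 in 5 members (10.9%) and longer in 1 (2.17%), against 12.3% and 1.83% of the 12895 genes with a length test. NDUFS1 was the shortest relative to siNC, at -0.280 ± 0.016 on the log2 scale (adjusted p = 6.2e-05), and was called shorter at 0, 3 and 6 h separately. Its TPM values were 54.43 and 53.61 in siNC at 0 h, 53.32 and 54.13 at 3 h and 59.0 and 63.32 at 6 h, against 36.53 and 36.14, 28.96 and 32.14, and 27.54 and 31.26 in siCPSF6. They remained apart, with a TPM difference of -0.81 ± 0.05 beside the count difference of -1.10. NDUFB6 (-0.163 ± 0.028, adjusted p = 0.0095), NDUFC2 (-0.087 ± 0.012, adjusted p = 0.0036), NDUFA10 (-0.070 ± 0.017, adjusted p = 0.034) and NDUFB10 (-0.035 ± 0.005, adjusted p = 0.0059) were also shorter, and NDUFS7 was longer (0.111 ± 0.013, adjusted p = 0.0017). Centred on the median over all genes in place of the spike-ins, 2 members were shorter and 34 longer, NDUFB10 had the opposite call (0.043, adjusted p = 0.0027) and NDUFA10 was not called (0.008, adjusted p = 0.74). NDUFA10 also lost its call with the replicate block (adjusted p = 0.053) and without any 1 of 10 libraries. The number longer was 2 without the first siNC library of 6 h or the second siCPSF6 library of 0 h and 4 without the first siCPSF6 library of 6 h. With time in actinomycin D, from 0 to 6 h, 4 members (8.7%) were shorter and 2 (4.35%) longer in siNC, against 2.88% and 2.12% of all genes, and 5 (10.9%) and 4 (8.7%) in siCPSF6, against 3.04% and 3.75%.

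Other members with large but imprecise length differences were NDUFAF4 (-0.22, adjusted p = 0.33), NDUFV3 (0.20, adjusted p = 0.073), NDUFAF5 (-0.18, adjusted p = 0.33) and NDUFA5 (0.12, adjusted p = 0.23). NDUFAF5 had 430 and 465, 419 and 431, and 407 and 437 normalized counts in siNC and 512 and 539, 476 and 587, and 372 and 427 in siCPSF6, with arms apart at 0 and 3 h and overlapping at 6 h. NDUFV3 had 534 and 566, 503 and 501, and 604 and 633 in siNC and 443 and 442, 420 and 417, and 468 and 542 in siCPSF6, without overlap at any time. NDUFB6, a membrane-arm subunit, had 312 and 331, 685 and 652, and 958 and 1074 in siNC and 402 and 438, 648 and 696, and 812 and 936 in siCPSF6, with siCPSF6 above siNC at 0 h and below it at 6 h. NDUFA5 had 807 and 917, 1432 and 1314, and 2003 and 1825 in siNC and 812 and 775, 990 and 1084, and 1291 and 1395 in siCPSF6, which overlapped at 0 h only.

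**Figure D5:**
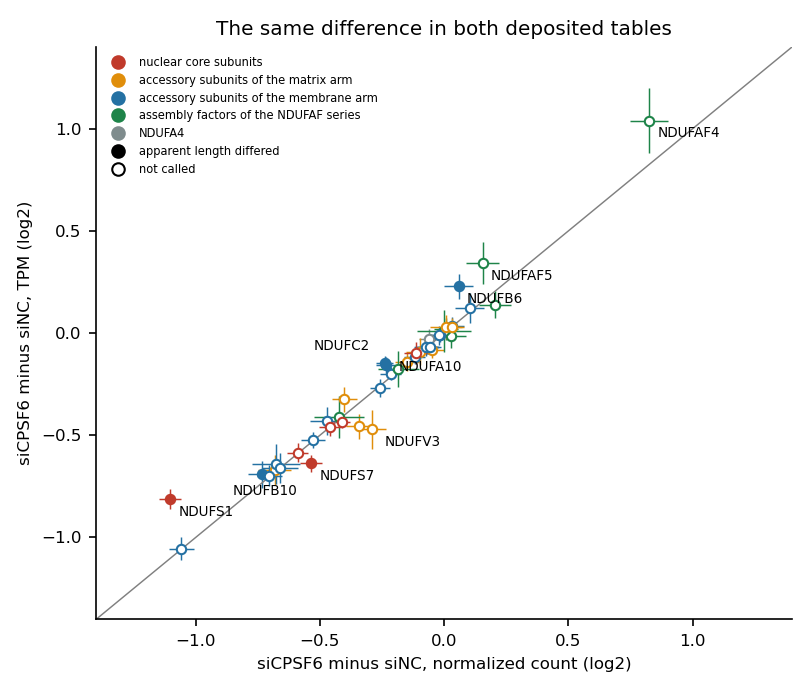
Log2 difference of siCPSF6 minus siNC averaged over 3 times, by normalized count (horizontal axis) and by TPM (vertical axis), with standard errors; filled points have a called difference in apparent length and the line marks equal values. NDUFS1 sits above the line, at -1.10 by count and -0.81 by TPM, and NDUFS7 below it.

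Since CPSF6 acts at 3' ends, the annotated ends of the members were read from GENCODE 29 on hg38. The longest annotated 3′UTR of the members had a median of 554.5 bases, against 1318 over 11637 genes with an annotated end, and 33 members (71.7%) had more than 1 annotated end, against 72.4%. UGUA stood in the last 100 bases of 35 members (76.1%) and 68.1% of genes, and AAUAAA in the last 40 bases of 34 members (73.9%) and 72.3% of genes. NDUFS1 had 6 annotated ends with 3′UTRs of 84 to 9368 bases, the widest span of any member. Windows of 30 bases, 5′ to 3′ on the gene's strand with TGTA in capitals, show the motif nearest the end for the most distal NDUFS1 end (chr2:206114848-206114877, minus strand) and one of its proximal ends with a 3′UTR of 366 bases (chr2:206123858-206123887, minus strand), and for NDUFV2 (chr18:9134279-9134308, plus strand) and NDUFB10 (chr16:1961925-1961954, plus strand), which were lower at 6 h.
NDUFS1 distal: atatgcttacgtgTGTAtggaaagtatctc
NDUFS1 proximal: taaataatttgtcTGTAaaatggatgaaat
NDUFV2: atttatattgaacTGTAaatatgtcactag
NDUFB10: tgctgtgtggctcTGTAtgactgttgctga
The motif stood near 5 of the 6 annotated ends of NDUFS1 and was not in the last 100 bases of the end with a 3′UTR of 1074 bases. NDUFAF4 and NDUFAF7, the 2 members that were higher on average, each had 1 annotated end, with 3′UTRs of 1791 and 810 bases and no UGUA in the last 100. Lower members were also among those without the motif: of 11 such members 6 were lower, NDUFV1, NDUFA7, NDUFB1, NDUFB11, NDUFA2 and NDUFAF1, and of the 35 with it 18 were lower. The files hold no reads by end, and use of these ends was not tested.

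Nuclear subunits of the other respiratory complexes were also mostly lower in siCPSF6 averaged over the times, though not at 0 h. Of 39 subunits of complexes II to V, 29 (74.4%) were lower and 1 (2.56%) was higher on average, against 35.4% and 34.4% of all genes, with a median of -0.17. At 0 h 6 (15.4%) were lower and 4 (10.3%) higher, against 21.1% and 21.8% of all genes, with a median of -0.03. At 3 h 27 (69.2%) were lower and 2 (5.13%) higher, against 29.1% and 26.2%. At 6 h 31 (79.5%) were lower and 3 (7.69%) higher, against 28.6% and 27%. All 39 rose from 0 to 6 h in both arms on the deposited scale, with medians of 1.28 in siNC and 1.02 in siCPSF6, against 48.6% and 49.8% of all genes that rose. The change was lower in siCPSF6 in 15 (38.5%) and higher in 2 (5.13%), against 12.4% and 12% of all genes. Of 75 mitochondrial ribosomal protein genes, which serve translation of the mitochondrial subunits, 33 (44%) were lower and 19 (25.3%) higher with a median of -0.08, and their 0 to 6 h change differed between arms by -0.03 at the median, with 18 (24%) lower and 10 (13.3%) higher. Whether complex I members differed from these lists was not tested.

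The 7 complex I mRNAs made in mitochondria encode the core of the membrane arm. On average 5 (71.4%) were higher in siCPSF6 and 0 lower by limma (0 at an unadjusted p under 0.05), with a median of 0.14. The shares of all genes were 34.4% higher and 35.4% lower. At 0, 3 and 6 h, 4 (57.1%), 1 (14.3%) and 4 (57.1%) were higher, against 21.8%, 26.2% and 27% of all genes. By limma 0 were lower at each time. At 3 h 6 of the 7 differences lay below 0, with a median of -0.03. From 0 to 6 h, 6 of 7 (85.7%) fell in each arm, against 30.7% of all genes in siNC and 27.6% in siCPSF6. MT-ND6, the one on the opposite strand of mitochondrial DNA from the other members of the list, fell most. It went from 2056 and 2138 normalized counts to 10 and 13 in siNC and from 1933 and 1765 to 14 and 24 in siCPSF6. MT-ND2 fell as well, with log2 changes of -3.10 and -2.87, while MT-ND4 was at 0.09 and 0.13 and did not pass. The difference between arms in this change was called in 0 of the 7 by limma (0 lower and 1 higher at an unadjusted p under 0.05). Of all genes, 12.4% were lower and 12% higher. From 0 to 3 h the change was lower in siCPSF6 in 1 (14.3%) and higher in 0, against 0.734% and 2.26% of all genes. From 3 to 6 h it was higher in 2 (28.6%) and lower in 0, against 7.84% and 7.47%.

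Of 11 assembly factors outside the NDUF pattern, 5 (45.5%) were lower and 4 (36.4%) higher on average, against 35.4% and 34.4% of all genes. NUBPL, which delivers iron-sulfur clusters to complex I, was 0.70 higher and TMEM70 0.87 higher, while FOXRED1 (-0.55) and TIMMDC1 (-0.51) were lower. Of 9 regulators of nuclear respiratory genes, 2 (22.2%) were lower and 3 (33.3%) higher, against 35.4% and 34.4%. ESRRA, a nuclear receptor that drives respiratory genes, had 610 and 599 normalized counts in siNC at 0 h, 585 and 713 at 3 h and 1005 and 1000 at 6 h, against 328 and 343, 312 and 397, and 334 and 363 in siCPSF6. It was lower in every siCPSF6 library (-1.08 ± 0.07, adjusted p = 3.1e-09). PPARGC1A, its coactivator, was at -0.51 (adjusted p = 0.003) and GABPB1 was 0.75 higher. The other 4, the genes of the YY1 and NRF1 motifs among them, did not pass the test. Their part in the members' differences was not tested.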

How the data were processed

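RNA-seq of HepG2 cells gave 12 libraries in 6 groups of 2, grouped by siRNA and hours in actinomycin D from the sample labels. Per the submitters' processing notes, STAR, RSEM and hg38 were used; the versions, the annotation and any strand setting were not given in the sources used here. Normalized counts deposited by the authors were used, whole numbers treated here as a score because their upper quartile was 660.5 to 661 in every library, and TPM values that the authors' table sums to 1000000 per library. Read depth is therefore unknown and count models were not used.

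limma 3.58.1 in R 4.3.3, with trend and robust settings, was fitted to log2(normalized count + 1) of the 12939 genes with a mean of at least 20, one mean per group (6 groups, 6 residual degrees of freedom), and p-values were adjusted by Benjamini-Hochberg over all genes at 0.05. Fold changes on this scale understate low genes. TPM were tested as log2(TPM + 0.1) over 12188 genes with a mean of at least 1. Spike-in scaling used 47 ERCC transcripts with a mean of at least 20. Apparent length was log2(normalized count + 1) minus log2(TPM + 0.01), centred on spike-ins, over 12895 genes. The fitting script was tested on simulated data. Symbols were known for 22144 of 22148 genes, and 87 spike-in entries were kept out of the tests. Gene models were GENCODE 29 (21694 identifiers matched) and promoters RefSeq.

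Alternatives were other pseudocounts and filters, spike-in and median-ratio scaling, the TPM table, plain limma, a replicate block, only the groups compared and each library left out. Same-numbered libraries deviated from their group means together, with correlations of 0.11 to 0.24 over 15 pairs of groups. The main fit did not use the replicate number, so its p-values take the libraries as unpaired. Only the replicate block pairs libraries by number. No label names a shared day or batch. Chi-square between replicates divided by its degrees of freedom was 6 to 15.7 on the normalized counts. This value changes with the unknown scaling, so it cannot tell whether replicates differed by more than sampling noise. The members and lists were chosen with earlier results of these data known. Each member is named with its log2 differences; values per library are given for the 10 smallest p in the average, up to 4 in each other comparison, up to 6 by absolute length difference, the highest and lowest by TPM, and NDUFA4. Values per library of NDUFAF7, NDUFAF8, MT-ND6 and ESRRA were chosen after they were seen. The results of 1 member are not reported here; it stays in the counts and medians.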

Additional observations from a re-analysis of the deposited data

Results flagged for a closer look

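The change from 0 to 6 h differed between the siRNA arms, by the limma test of the difference itself on the deposited scale, in members of every role. In core subunits the log2 difference of siCPSF6 minus siNC in this change was -0.65 for NDUFV2 and -0.48 for NDUFS1. Among matrix-arm accessory subunits it was -0.73 for NDUFS6, -0.57 for NDUFA7 and -0.39 for NDUFA5. In the membrane arm it was -0.65 for NDUFA8, -0.60 for NDUFB6, -0.59 for NDUFB10, -0.50 for NDUFB9, -0.48 for NDUFAB1, -0.39 for NDUFA1, -0.30 for NDUFA13, -0.30 for NDUFB11 and -0.28 for NDUFS5. NDUFA4 stood at -0.40. The assembly factors NDUFAF6 and NDUFAF3 stood at -0.79 and -0.49, and NDUFAF4 alone was positive, at 0.93.

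For the change from 0 to 3 h the arms differed in NDUFB2 at -0.51 and NDUFC2 at -0.36. For the change from 3 to 6 h they differed in NDUFA8 at -0.88, NDUFV2 at -0.42 and NDUFS6 at -0.40. Groups of 2 are too small for a check of single outlying libraries.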

How the results depend on the processing

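The 162 results for single members were those named or called in each comparison and not all 46 members in each. Each was set beside the alternatives that applied to it, out of 24, and every pair of result and alternative was counted. The side of the threshold was kept in 3138 pairs, which include any change of sign where neither value was called. Direction was kept and the call lost in 322 pairs and gained in 16. In 12 pairs the sign reversed with at least 1 of the values called. Scale mattered most. Under spike-in scaling the members called were 1 higher on average, 1 higher at 0 h, 15 lower and 1 higher at 3 h, 6 lower and 13 higher for the 6 h change in siNC, 13 lower and 1 higher in siCPSF6, and, for the difference between arms, 1 lower over 0 to 6 h, 1 over 0 to 3 h and 2 over 3 to 6 h. By TPM they were 4 higher at 0 h, 7 lower in siNC, 12 lower and 21 higher in siCPSF6, 5 lower and 0 higher for the difference over 0 to 6 h and 0 over 0 to 3 h. With median-ratio scaling 4 were higher on average, 2 higher at 6 h and 4 lower over 6 h in siCPSF6. Without trend and robust settings 2 were higher at 6 h and 0 differed over 0 to 3 h. That last count was 1 with no filter, 5 with a mean of at least 100 and 5 with only the groups compared. With the replicate block, which pairs libraries by number, it was 11, with 8 lower and 1 higher over 3 to 6 h and 2 higher at 6 h; no other count moved by over 1.5 times.

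Over all 46 members the 6 h change took the opposite sign per spike-in in 12 in siNC and 22 in siCPSF6, of which 11 and 21 had been called, and by TPM in 6 and 11, of which 5 and 10 had been called. No called member took the opposite sign on these scales in a comparison between arms. Among the members named, the 6 h change reversed per spike-in without a limma call in siNC for NDUFS1 (-0.14, adjusted p = 0.46) and NDUFV2 (-0.007, 0.97). The same held in siCPSF6 for NDUFS6 (-0.063, 0.78) and NDUFB9 (-0.21, 0.28). With the opposite call it reversed in siCPSF6 for NDUFS1 (-0.51, adjusted p = 0.0039), NDUFV2 (-0.54, 0.0019) and NDUFA8 (-0.49, 0.012). By TPM the change also reversed with the opposite call in siCPSF6 for NDUFS1 (-0.31, adjusted p = 0.0091), NDUFA8 (-0.30, 0.0073) and NDUFV2 (-0.37, 0.0026). With apparent length centred on all genes, 2 members were shorter and 34 longer, and NDUFA10 (0.008, adjusted p = 0.74) and NDUFB10 (0.043, adjusted p = 0.0027) reversed, the latter with the opposite call. The cause was not tested.

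Leaving out each library gave 21 to 26 lower and 2 to 3 higher on average, 9 to 15 and 3 to 10 at 0 h, 19 to 27 and 2 to 5 at 3 h, 22 to 33 and 1 at 6 h, 1 to 2 and 41 to 42 over 6 h in siNC, and 1 to 2 and 40 to 41 in siCPSF6. For the difference between arms it gave 11 to 19 and 1 over 0 to 6 h, 0 to 5 and 0 over 0 to 3 h, 2 to 6 and 0 to 1 over 3 to 6 h, and for length 4 to 5 and 1 to 4. A group left with 1 library was assumed to vary like the others. Where these counts moved by over 1.5 times, the libraries were both siNC of 0 h, the first siCPSF6 of 0 h and the second siNC and siCPSF6 of 3 h for the counts at single times. For the change over 6 h they were the first siNC of 0 h and the first siCPSF6 of 6 h. With unknown read depth, low members such as NDUFAF1 carry no counting interval.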

Other observations

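Apparent length also moved with time in actinomycin D for a few members. NDUFA9, a matrix-arm subunit with 2 annotated ends and a longest 3′UTR of 7209 bases, was longer in both arms, by 0.50 ± 0.11 in siNC (adjusted p = 0.047) and by 0.57 ± 0.11 in siCPSF6 (0.031). NDUFAF1 was longer in both, at 0.17 ± 0.03 (adjusted p = 0.034) and 0.21 ± 0.03 (adjusted p = 0.02). NDUFAF5 was longer in siCPSF6 at 1.08 ± 0.17 (adjusted p = 0.02) and did not pass in siNC at 0.43 (adjusted p = 0.22). NDUFA11, a membrane-arm subunit, was shorter in both, at -0.13 ± 0.02 (adjusted p = 0.0098) and -0.14 ± 0.02 (adjusted p = 0.009). These members were chosen after their values were seen, and the values show which length the quantification assigned, not which ends were used.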
